A study of Caenorhabditis elegans with 27 samples.

Results

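Worms fed the mitochondrial clone cco-1 together with cbp-1 were set directly against worms fed cco-1 together with atfs-1. The comparison takes the 6 libraries labelled as these mixtures out of 27 in the series, 3 libraries per group, and covers every gene that passed a filter on low counts. The cbp-1 mixture held 50% of the cco-1 clone, 25% of the cbp-1 clone and 25% empty vector. The atfs-1 mixture held 50% of the cco-1 clone and 50% of the atfs-1 clone. The share of the second clone therefore differed between the mixtures, and this cannot be told apart from the identity of the clone. Worms fed 50% cco-1 clone with 50% empty vector (3 libraries, cco-1 alone) are given beside both mixtures. The same pair of mixtures under the mrps-5 clone (3 libraries each, at the same shares), mrps-5 with 50% empty vector, the cbp-1 and atfs-1 clones alone, for which the labels give no share, and the empty vector (3 libraries each) are given where they bear on a gene. All groups were worms of the standard laboratory strain N2, said by the series design to carry a GFP reporter driven by hsp-6, although the sample labels call them wild type. They ate HT115 bacteria from the egg on at 20 °C and were harvested whole at day 2, at the L4 to young adult stage, and poly(A) RNA was sequenced in bulk.

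The cco-1 gene (cox-5B) makes part of complex IV of the respiratory chain, and its loss from early life impairs respiration. Worms answer such damage with the mitochondrial unfolded protein response, in which mitochondrial chaperones and proteases are induced from the nucleus. ATFS-1 is a transcription factor that is normally imported into mitochondria and enters the nucleus when import fails. CBP-1 is the worm homolog of CBP and p300, histone acetyltransferases and coactivators that act at very many promoters and enhancers. Setting the mixtures side by side on the same mitochondrial clone asks in which genes a clone against a general coactivator and a clone against one stress transcription factor differ in their readout.

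The 6 libraries held 23605069 to 30584399 counts in genes, and their replicates differed by somewhat more than counting noise (chi-square per degree of freedom 1.74 to 2.34). The 10 highest genes took 5.02% to 5.03% of counts in the cbp-1 mixture and 6.28% to 6.51% in the atfs-1 mixture. The labels do not say that replicates came from separate cultures, so p-values measure only scatter between libraries, which may be technical, and the fit estimates it over all 27 libraries. Library 1 of the atfs-1 clone alone stood apart from its replicates (hsp-60 at 256 CPM, against 430 and 428 CPM) and enters that estimate. In bulk worms, fewer cells of a type and less RNA per cell cannot be told apart. Of 16435 genes tested, 7318 (44.5%) differed between the mixtures at an adjusted p below 0.05 (edgeR quasi-likelihood test, Benjamini-Hochberg), 3556 (21.6%) of them higher and 3762 (22.9%) lower in the cbp-1 mixture. At a log2 change of at least 1 in size these were 831 (5.06%) and 1045 (6.36%). Without library 1 of the atfs-1 clone alone, a choice made after seeing the data, 8093 genes were called. With so many genes called, counts of listed genes below are read against 21.6% and 22.9%.

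The targeted genes were examined first. cco-1 was at 105, 125 and 116 CPM (counts scaled to library size) in the cbp-1 mixture, 183, 184 and 181 CPM in the atfs-1 mixture and 170, 167 and 171 CPM in cco-1 alone. The cbp-1 mixture thus lay below both other groups without overlap, at a log2 change of -0.66 ± 0.12 (standard error, here and below) against the atfs-1 mixture (adjusted p = 0.000115, edgeR). In the mrps-5 arm, where no cco-1 clone was fed, cco-1 was at 162, 165 and 148 CPM with cbp-1, against 223, 225 and 220 CPM with atfs-1. In both arms, the cbp-1 mixture therefore had the lower cco-1 count.

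cbp-1 (chromosome III, 9766509 to 9774825, WBcel235) was at 275, 277 and 274 CPM in the cbp-1 mixture, against 346, 336 and 339 CPM in the atfs-1 mixture. These mixtures did not overlap and the log2 change was -0.31 ± 0.06 (adjusted p = 0.000379, edgeR). It was at 317, 323 and 334 CPM in cco-1 alone and at 272, 277 and 257 CPM with the empty vector. The cbp-1 mixture thus lay below cco-1 alone but not below the empty vector. atfs-1 was at 102, 104 and 101 CPM in the cbp-1 mixture, 117, 108 and 113 CPM in the atfs-1 mixture and 99.8, 98.3 and 99.4 CPM in cco-1 alone. The count of atfs-1 was thus not lower where its clone was fed, and it was higher than in cco-1 alone by 0.18 ± 0.04 on the log2 scale (adjusted p = 0.000182, edgeR). Reads of a fed clone are not told apart from worm transcripts in such counts, so the counts do not show how far atfs-1 or cbp-1 was knocked down. mrps-5, which no clone in this arm targets, was at 93, 95.8 and 99 CPM in the cbp-1 mixture, against 95.5, 95.8 and 90.8 CPM in the atfs-1 mixture, and did not pass the test (adjusted p = 0.57, edgeR).

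The shorter relatives of cbp-1 were both higher in the cbp-1 mixture. cbp-2 (chromosome III, 9923174 to 9924800) was at 47.2, 48.6 and 48.2 CPM, against 17.4, 16.8 and 17.4 CPM in the atfs-1 mixture and 11, 11.5 and 10.3 CPM in cco-1 alone, a rise of 1.48 ± 0.05 on the log2 scale over the atfs-1 mixture. F40F12.7 (cbp-3; chromosome III, 9913993 to 9924768) was at 70.2, 72 and 75.1 CPM, against 49.6, 45.8 and 48.1 CPM, a rise of 0.60 ± 0.04. Neither gene had overlapping groups. The annotated exons of cbp-2 and F40F12.7 share 173 bases on one strand, so their counts are not fully separate.

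The mitochondrial chaperones and proteases, the classical readout of the mitochondrial response, did not set the mixtures apart by much. Of 13 genes 3 were higher (5 with upper-quartile scaling) and 3 lower in the cbp-1 mixture (23.1% each, near the share of all genes), and none reached a log2 change of 1. hsp-6, the mitochondrial Hsp70, was at 836, 846 and 836 CPM in the cbp-1 mixture, 879, 847 and 874 CPM in the atfs-1 mixture and 1160, 1180 and 1210 CPM in cco-1 alone. The log2 change between the mixtures was -0.05 ± 0.05 (adjusted p = 0.459, edgeR), while each mixture lay below cco-1 alone, by 0.50 for the cbp-1 mixture and 0.45 for the atfs-1 mixture, and those values share the cco-1 libraries. Of the 13 genes, 9 were lower than in cco-1 alone in the cbp-1 mixture (25.3% of all genes were, 21.9% were higher and 47.2% differed). In the atfs-1 mixture 10 of the 13 were lower (11.5% of all genes were, 8.97% were higher and 20.4% differed).

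Within that list, the chaperonin genes were lower in the cbp-1 mixture. hsp-60 was at 283, 294 and 286 CPM, against 376, 368 and 378 CPM in the atfs-1 mixture, with a log2 change of -0.38 ± 0.12. Its neighbour Y22D7AL.10, the mitochondrial Hsp10, was at 111, 109 and 98.9 CPM, against 138, 136 and 152 CPM (-0.42 ± 0.06), and trap-1, a mitochondrial Hsp90, at 293, 282 and 273 CPM, against 376, 369 and 388 CPM (-0.42 ± 0.07). Both chaperonin subunits and the Hsp90 homolog thus lay below the atfs-1 mixture in every library. The genes higher in the cbp-1 mixture were D2030.2, the ClpX subunit of a matrix protease (87.4, 90.4 and 91 CPM, against 66, 70.4 and 68.8 CPM), ymel-1, an inner-membrane protease (0.18 ± 0.04), and the DnaJ cochaperone dnj-10 (0.14 ± 0.04). The remaining 7, among them spg-7, C34B2.6 (lonp-1), clpp-1 and ppgn-1, did not pass, with log2 changes of -0.10, 0.08, 0.07 and 0.09 for those named.

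**Figure D1:**
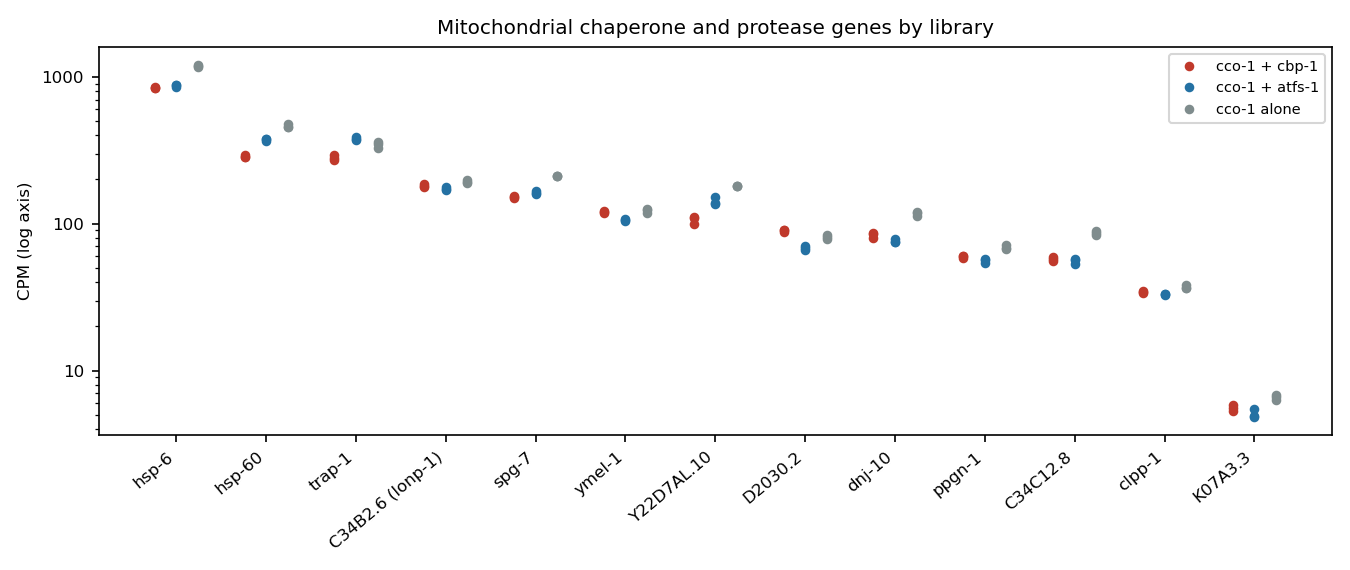
CPM on a log axis of the 13 mitochondrial chaperone and protease genes in the 3 libraries each of the cbp-1 mixture (red), the atfs-1 mixture (blue) and cco-1 alone (grey). hsp-6 sits between 836 and 846 CPM in the cbp-1 mixture and between 847 and 879 CPM in the atfs-1 mixture, with cco-1 alone above both.

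Among regulators of the response, 1 of 14 was higher and 7 were lower (50.0%, 4 with upper-quartile scaling) in the cbp-1 mixture, none by a log2 change of 1. zip-3, a bZIP factor known to oppose ATFS-1, was at 19.2, 18 and 16.9 CPM, against 30.2, 30.8 and 33.6 CPM in the atfs-1 mixture and 41.6, 41.1 and 42 CPM in cco-1 alone. dve-1, a homeodomain protein that acts with chromatin remodelling in this response, was lower (log2 change of -0.61 ± 0.07), and haf-1, a mitochondrial peptide exporter, was the one called higher (0.45 ± 0.09). The groups of all 3 genes did not overlap.

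Of the 12 largest rises in the cbp-1 mixture among called genes averaging 5 CPM or more, 6 were taken as intracellular pathogen response genes. Worms switch on that set when microsporidia or the Orsay virus enter intestinal cells. The pals genes, a large family of that response, were higher in 30 of 34 tested members (88.2%, of 38 in the table) and lower in 2, with a median log2 change of 3.69, against 0.01 over all genes. Members at low levels elsewhere could pass the filter on low counts through the cbp-1 groups, so these counts describe the tested members and are no support for a direction. The partly overlapping list of infection response genes, which shares 13 tested members with the pals list, was higher in 29 of 37 (78.4%) and lower in 5, with a median of 3.49.

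C17H1.6 (pals-5), the usual reporter gene of this response, was at 16.5, 16.3 and 17.4 CPM in the cbp-1 mixture, 0.085, 0.105 and 0.065 CPM in the atfs-1 mixture and 0.078, 0.118 and 0.141 CPM in cco-1 alone. F22G12.1 (pals-14) was at 87.2, 97.3 and 95.3 CPM, against 0.722, 0.807 and 0.85 CPM in the atfs-1 mixture. eol-1, which encodes a protein related to the decapping exonuclease DXO, was at 150, 163 and 162 CPM, against 1.91, 2.07 and 1.86 CPM. In all 3 genes the cbp-1 mixture lay far above the atfs-1 mixture and cco-1 alone, and their log2 changes were 7.55 ± 0.18, 6.86 ± 0.08 and 6.34 ± 0.08. With the cbp-1 clone alone, C17H1.6 was at 11.9, 12.4 and 12.9 CPM, F22G12.1 at 96.7, 94 and 96.8 CPM and eol-1 at 154, 148 and 152 CPM, against 0.105, 0.123 and 0.076 CPM, 0.665, 0.658 and 0.839 CPM and 1.12, 1.44 and 1.64 CPM with the empty vector. These levels without the cco-1 clone were close to those of the cbp-1 mixture, and the pals genes had a median log2 change of 3.55 there. F26F2.1, F26F2.3 and C17H1.7 (pals-6) followed with 6.54 ± 0.13, 6.78 ± 0.17 and 5.98 ± 0.10. C17H1.7 also differed between the other groups, at 0.68, 1.23 and 1.08 CPM in the atfs-1 mixture and 4.64, 5.6 and 5.38 CPM in cco-1 alone.

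Regulators of the response and some of its other members moved less, and the 6 given here were chosen after their values were seen. C29F9.1 (pals-22), known to repress the response, was at 6.8, 6.71 and 7.13 CPM in the cbp-1 mixture, against 3.78, 3.76 and 3.76 CPM in the atfs-1 mixture, a log2 change of 0.87 ± 0.10. Its antagonist T17A3.2 (pals-25), at 4.78, 4.37 and 4.28 CPM against 3.4, 3.68 and 3.73 CPM, changed by 0.31 ± 0.11. drh-1, the RIG-I-like receptor that senses viral RNA, was at 76.8, 79.8 and 84.2 CPM, against 83.6, 84.4 and 79.4 CPM, and did not pass the test (adjusted p = 0.606, edgeR). cul-6, a cullin of a ubiquitin ligase that the response induces, rose by 0.46 ± 0.06. The pals genes lower in the cbp-1 mixture were C29F9.3 (pals-23; -0.46 ± 0.06) and C29F9.4 (pals-24; -0.28 ± 0.07), which lie beside pals-22 on chromosome III. Both ran the other way in the mrps-5 arm, with 0.52 ± 0.06 and 0.87 ± 0.07.

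The members of the infection list that were lower are mostly induced by bacterial pathogens rather than by viruses or microsporidia. F08G5.6 (irg-4), named with the others after their values were seen, was at 5.97, 6.27 and 6.23 CPM in the cbp-1 mixture, against 31.9, 33.4 and 31.9 CPM in the atfs-1 mixture, a log2 change of -2.4 ± 0.06. C32H11.1 (irg-6), drd-2 (irg-7), F35E12.5 (irg-5) and the transcription factor gene lin-22 were also lower, by log2 changes of -3.94, -1.56, -1.14 and -1.31. These 5 genes were called lower in the mrps-5 arm as well.

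The 12 largest rises held 6 other genes, which were not counted as part of this response here. Whether they belong to it was not examined. fbxa-75, an F-box A gene, was at 10.6, 13.8 and 13.3 CPM in the cbp-1 mixture, against 0, 0.035 and 0 CPM in the atfs-1 mixture, where a single read was counted in all 3 libraries (1212 reads against 1). That ratio was 1040, with an exact 95% counting interval of 186 to 41000. lips-11, a lipase-related gene, was at 11, 14.2 and 12 CPM, against 0.085, 0 and 0.065 CPM, and comt-4, of the catechol-O-methyltransferase family, at 66.5, 65.6 and 63.3 CPM, against 0.467, 0.807 and 0.392 CPM. dod-3, named for acting downstream of DAF-16, was at 79.9, 71.6 and 71.2 CPM, against 0.977, 1.02 and 1.24 CPM. lys-3, a lysozyme gene, and B0507.8 rose by 5.98 ± 0.15 and 5.93 ± 0.14. Across the whole F-box A family 54 of 169 tested members were higher (32%) and 31 lower (18.3%), with a median log2 change of 0.12.

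**Figure D2:**
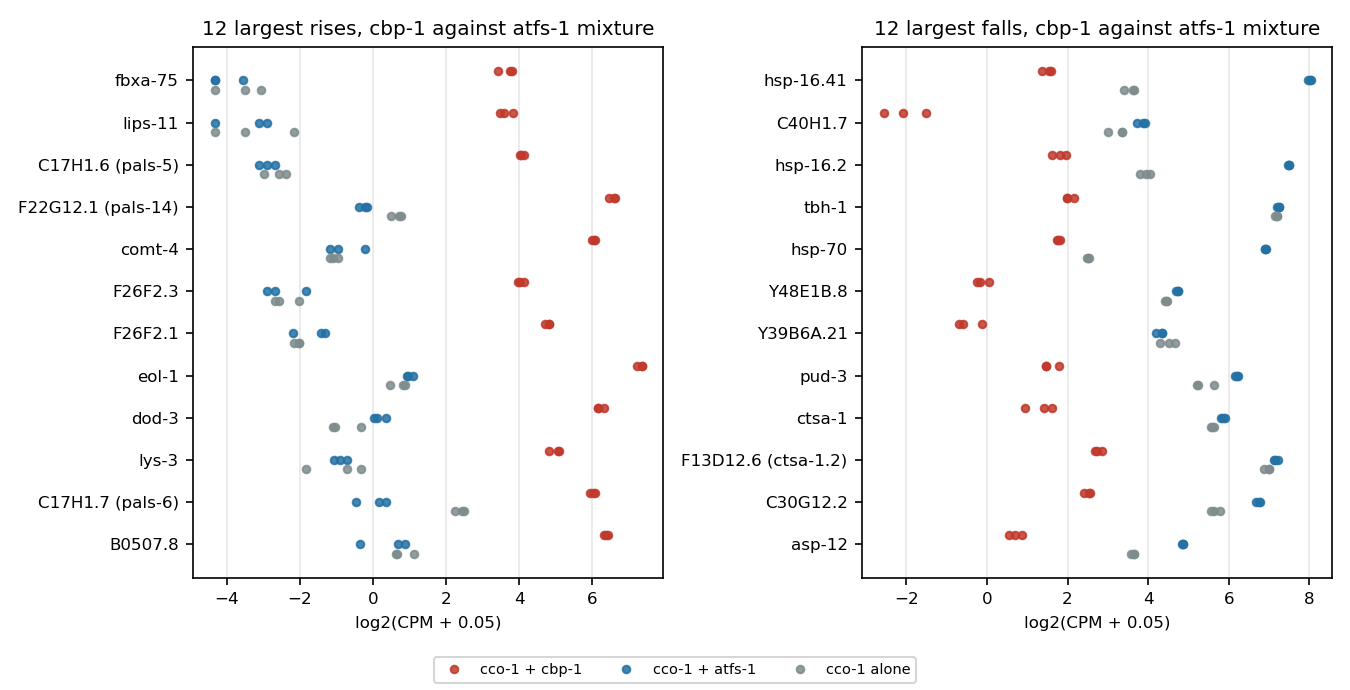
Level of the 12 genes that rose most (left) and the 12 that fell most (right) in the cbp-1 mixture relative to the atfs-1 mixture, as log2(CPM + 0.05), with 1 point per library for the cbp-1 mixture (red), the atfs-1 mixture (blue) and cco-1 alone (grey). Among the rises cco-1 alone stands 5.21 CPM against 0.996 CPM in the atfs-1 mixture for C17H1.7 (means) and less far from the atfs-1 mixture for the other rises, all far below the cbp-1 mixture, whereas for hsp-16.41, hsp-16.2 and hsp-70 it lies nearer to the cbp-1 mixture.

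3 secondary argonautes, which bind the amplified short RNAs of RNA interference, were also higher in the cbp-1 mixture. sago-2 was at 48.9, 52.6 and 49.7 CPM, against 17.1, 16.7 and 17.4 CPM in the atfs-1 mixture and 16.9, 19 and 18.7 CPM in cco-1 alone. ppw-1, which worms need for RNA interference by feeding in the germline, was at 126, 127 and 127 CPM, against 61, 61.6 and 60.5 CPM. sago-1 was at 97.9, 97.8 and 99 CPM, against 57.5, 56.8 and 56.7 CPM. The log2 changes were 1.56 ± 0.05, 1.05 ± 0.04 and 0.79 ± 0.04, with no overlap. In the list of 39 genes of the pathway as a whole, 7 were higher (17.9%) and 5 lower (12.8%), fewer in each direction than among all genes. The core genes rde-1 and dcr-1, which respectively bind and cut the primary RNA, did not pass, with log2 changes of 0.04 and -0.03.

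Of the 12 largest falls among called genes averaging 5 CPM or more, 3 were heat shock genes, which code for cytosolic chaperones induced by heat and misfolded protein. hsp-16.41, a small heat shock protein, was at 2.51, 2.97 and 2.88 CPM in the cbp-1 mixture, 262, 257 and 252 CPM in the atfs-1 mixture and 12.4, 12.2 and 10.6 CPM in cco-1 alone. hsp-16.2 (chromosome V, 1804334 to 1804957), which lies beside hsp-16.41 (1805178 to 1805875) on the opposite strand, was at 3.0, 3.86 and 3.48 CPM, 182, 176 and 180 CPM, and 16.6, 13.8 and 15.3 CPM in the same order of groups. hsp-70, an inducible cytosolic Hsp70, was at 3.46, 3.3 and 3.35 CPM, 119, 122 and 120 CPM, and 5.66, 5.56 and 5.77 CPM. The high libraries were thus the 3 of the atfs-1 mixture, and the log2 changes against them were -6.53 ± 0.08, -5.7 ± 0.07 and -5.15 ± 0.08.

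Set against cco-1 alone, these 3 genes were higher in the atfs-1 mixture by 4.46, 3.56 (hsp-16.2) and 4.41 on the log2 scale and lower in the cbp-1 mixture by 2.07, 2.14 and 0.75. hsp-16.48, named after its values were seen, was higher than cco-1 alone in both mixtures, at 8.46, 11.3 and 10.9 CPM in the cbp-1 mixture, 64.9, 64.5 and 61.9 CPM in the atfs-1 mixture and 5.93, 4.57 and 5.38 CPM in cco-1 alone. With the atfs-1 clone alone, hsp-16.41 was at 2.96, 3.59 and 3.08 CPM and hsp-70 at 2.7, 4.13 and 4.32 CPM. Of the 16 heat shock genes tested (of 19 in the table) 11 were lower in the cbp-1 mixture (68.8%, of which 7 by a log2 change of at least 1) and 1 was higher. The lower ones included the constitutive chaperones hsp-1 (2930, 2870 and 2870 CPM, against 4210, 4150 and 4110 CPM; -0.52 ± 0.05) and daf-21, the cytosolic Hsp90 (-0.58 ± 0.03). hsf-1, the heat shock transcription factor, did not pass, with a log2 change of 0.08. hsp-16 and Hsp70 genes have near-identical copies, and the handling of reads that fit several copies is not stated in the sources read here, so the split of counts among them is uncertain.

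Outside the heat shock list, tbh-1 stood out among the falls. It encodes tyramine beta-hydroxylase, which makes the transmitter octopamine, and was at 3.92, 3.89 and 4.41 CPM in the cbp-1 mixture, against 153, 147 and 152 CPM in the atfs-1 mixture and 148, 148 and 142 CPM in cco-1 alone (log2 change of -5.21 ± 0.05 against the atfs-1 mixture). tdc-1, which makes tyramine in the step before and is named here after its values were seen, was at 224, 218 and 229 CPM, against 244, 243 and 234 CPM (-0.10 ± 0.03). The fall in tbh-1 thus left its groups far apart, while tdc-1 was lower in every library by a small margin. The exons of tbh-1 overlap those of H13N06.7 by 372 bases and those of suox-1 by 26 bases, both on the opposite strand, and the sources used here do not say whether counting used the strand. C40H1.7, Y48E1B.8, C30G12.2 and Y39B6A.21, whose roles are not given here, were also among the 12 largest falls, with log2 changes of -6.14, -4.91, -4.25 and -4.86.

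Genes of digestion in the gut were the other large group of falls. Of 22 aspartyl and cathepsin B-like protease genes tested (of 27 in the table) 16 were lower (72.7%), 13 of them by a log2 change of at least 1. The other 6 were higher, all by at least 1. Their summed levels were 5060 to 5240 CPM in the cbp-1 mixture, 11000 to 11100 CPM in the atfs-1 mixture and 8120 to 8590 CPM in cco-1 alone. Against cco-1 alone, 16 were lower and 5 higher in the cbp-1 mixture (25.3% and 21.9% of all genes). In the atfs-1 mixture 5 were lower and 11 higher (11.5% and 8.97% of all genes). asp-12 was at 1.41, 1.57 and 1.79 CPM in the cbp-1 mixture, against 28.5, 28.9 and 29.2 CPM in the atfs-1 mixture and 12.6, 12.6 and 11.9 CPM in cco-1 alone. asp-5, named with asp-1 after their values were seen, was at 72, 68.7 and 72.1 CPM, against 621, 625 and 591 CPM, and asp-1, a highly expressed gut protease, at 1180, 1180 and 1100 CPM, against 3840, 3820 and 3920 CPM. The serine carboxypeptidase-like genes ctsa-1 (now ctsa-4.1) and F13D12.6 (now ctsa-1.2) fell by 4.55 and 4.42 on the log2 scale. pud-3, a gene raised in daf-2 mutants, was at 2.7, 3.39 and 2.72 CPM, against 75.5, 73.7 and 71.7 CPM.

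The family was not uniform. cpr-1, a cathepsin B-like gene, was at 1570, 1430 and 1500 CPM in the cbp-1 mixture, 143, 142 and 138 CPM in the atfs-1 mixture and 94.6, 109 and 103 CPM in cco-1 alone, a rise of 3.41 ± 0.05 over the atfs-1 mixture. asp-8 was at 166, 163 and 160 CPM, against 14.4, 14.1 and 12 CPM, but at 122, 121 and 119 CPM in cco-1 alone, so for that gene the atfs-1 mixture stood apart. pept-1, the intestinal peptide transporter, was at 25.2, 28.2 and 26.5 CPM, against 137, 135 and 131 CPM, and vha-6, a proton pump subunit of the gut surface, at 116, 118 and 120 CPM, against 361, 358 and 351 CPM. Both fell, by 2.33 ± 0.04 and 1.6 ± 0.04.

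Markers of the intestine as a cell type moved with these genes. Of 24 tested 15 were lower in the cbp-1 mixture (62.5%) and 5 higher, and their summed level was 4700 to 4860 CPM per library, against 7220 to 7330 CPM in the atfs-1 mixture and 5730 to 6200 CPM in cco-1 alone. Against cco-1 alone, 16 were lower and 4 higher in the cbp-1 mixture (25.3% and 21.9% of all genes). In the atfs-1 mixture 11 were lower and 5 higher (11.5% and 8.97% of all genes), with a median log2 change of -0.15. Its higher sum thus did not reflect most of the markers. 3 of these markers are also proteases of the list above. elt-2, the transcription factor that defines the intestine and is named with ges-1 after their values were seen, was at 14.1, 15.1 and 14.4 CPM, against 17.8, 17.5 and 17 CPM (log2 change of -0.26 ± 0.06), whereas the early intestinal esterase ges-1 was higher, at 15.9, 16.4 and 16.4 CPM against 6.41, 7.97 and 6.18 CPM. Under mrps-5 the log2 changes were 0.024 for elt-2 and -0.205 for ges-1, and the difference between arms passed the test for both. No defining marker was near 0 in either mixture of the cco-1 arm. The part of intestinal cell number or state in the protease result was not tested.

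**Figure D3:**
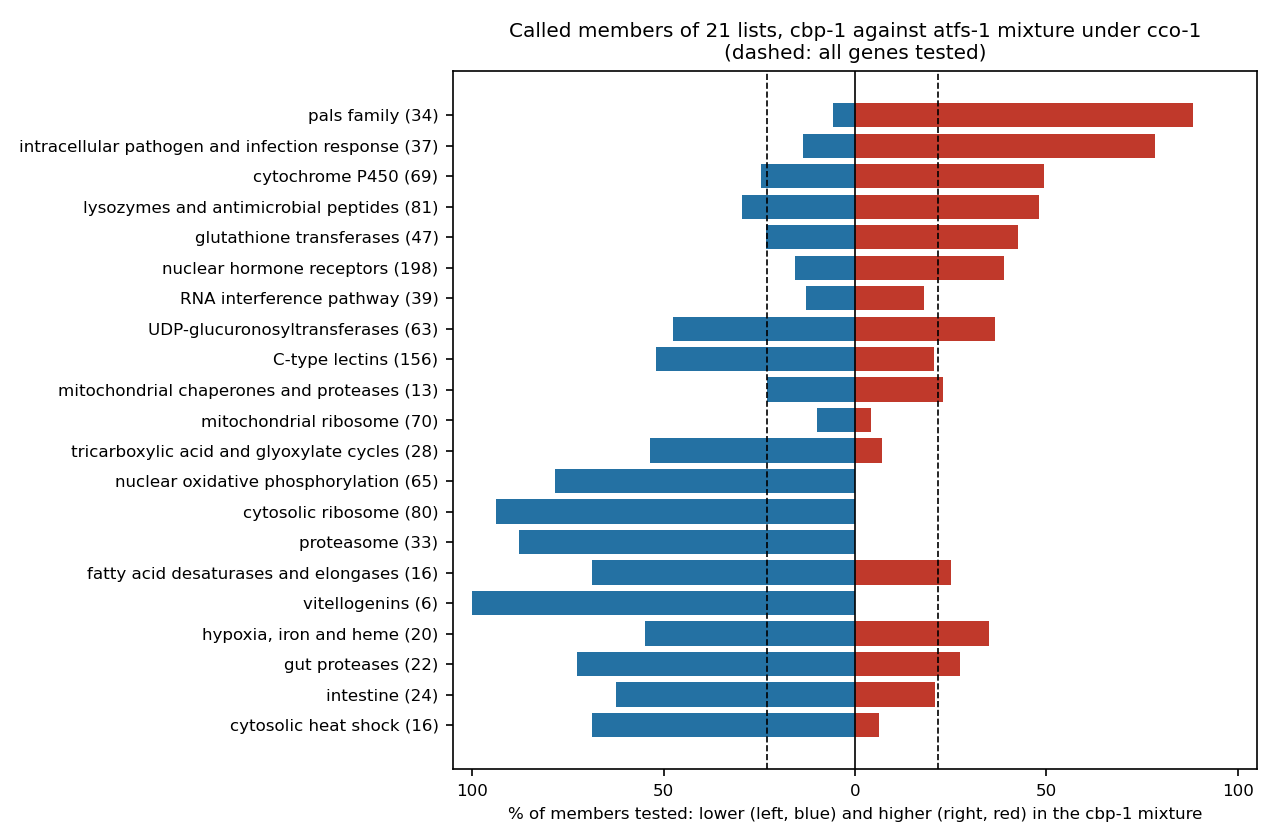
Share of tested members called lower (blue, left) and higher (red, right) in the cbp-1 mixture relative to the atfs-1 mixture for 21 gene lists, with the number of members tested in brackets. Dashed lines mark all genes, 22.9% lower and 21.6% higher. The pals family (88.2% higher) and the vitellogenins, cytosolic ribosome and proteasome (100%, 93.8% and 87.9% lower) lie farthest from them.

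Iron and heme genes changed in both directions. smf-3, the gut iron importer related to DMT1, was at 94.3, 92.6 and 95.1 CPM in the cbp-1 mixture, against 3.23, 2.6 and 3.2 CPM in the atfs-1 mixture and 1.76, 1.62 and 1.48 CPM in cco-1 alone. hrg-1, a heme transporter of lysosome-related organelles, was at 11.9, 11.2 and 11.6 CPM, against 69.3, 69.3 and 71.9 CPM and 89.1, 89 and 91.5 CPM. asp-10, also named hrg-7, which signals heme status between tissues, was at 200, 199 and 210 CPM, against 1350, 1350 and 1300 CPM and 1070, 1050 and 1040 CPM. In all 3 the cbp-1 mixture stood apart from both other groups, with log2 changes of 4.97 ± 0.07, -2.6 ± 0.06 and -2.72 ± 0.05 against the atfs-1 mixture. The heme transporter gene hrg-4 and the heme chaperone gene hrg-3, both named after their values were seen, fell by 3.25 ± 0.11 and 3.98 ± 0.13. aco-1, the cytosolic aconitase related to iron regulatory proteins, was at 151, 149 and 139 CPM, against 367, 351 and 350 CPM. Of the 20 genes of hypoxia, iron and heme tested, 7 were higher (35.0%) and 11 lower (55.0%), while hif-1 itself did not pass (0.07).

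Metal and lysozyme genes changed in both directions. mtl-1, a metallothionein, was at 28.6, 28.2 and 28.2 CPM in the cbp-1 mixture, against 1.23, 1.33 and 1.57 CPM in the atfs-1 mixture, while its paralog mtl-2, named after its values were seen, ran the other way, at 9.56, 9.24 and 9.02 CPM against 24.8, 21.6 and 23.5 CPM. lys-7 was at 378, 380 and 388 CPM, against 22.9, 24 and 21.7 CPM, and lys-2 at 34.9, 33.2 and 34.7 CPM, against 190, 186 and 184 CPM. Of 81 lysozyme and antimicrobial peptide genes 39 were higher (48.1%) and 24 lower (29.6%). Of 156 C-type lectin genes, many of them secreted by the gut and induced by bacteria, 32 were higher (20.5%) and 81 lower (51.9%). clec-5 was at 288, 291 and 290 CPM, against 24.9, 25.4 and 22.7 CPM, and clec-222 at 3.71, 4.13 and 3.71 CPM, against 39.1, 38.1 and 36.4 CPM.

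A further group was set apart by the atfs-1 mixture rather than by the cbp-1 mixture. cyp-33C8, a cytochrome P450 gene, was at 179, 177 and 174 CPM in the cbp-1 mixture, 14.4, 14.3 and 14.8 CPM in the atfs-1 mixture and 213, 201 and 196 CPM in cco-1 alone. cdr-2, of a cadmium-responsive family, was at 104, 95.7 and 99.1 CPM, 7.05, 6.98 and 7.09 CPM, and 151, 144 and 138 CPM in the same order. ugt-62, a glucuronosyltransferase gene, was at 422, 421 and 427 CPM, 66.5, 68.2 and 59.9 CPM, and 926, 904 and 901 CPM. These 3 genes rose in the cbp-1 mixture by 3.6 ± 0.05, 3.82 ± 0.06 and 2.71 ± 0.05 against the atfs-1 mixture, and the atfs-1 mixture lay 3.81, 4.36 and 3.81 below cco-1 alone. The cbp-1 mixture lay 0.20, 0.54 and 1.1 below cco-1 alone. The nuclear hormone receptor genes nhr-193 and nhr-115 were higher in the cbp-1 than in the atfs-1 mixture by 2.64 ± 0.13 and 1.91 ± 0.10, and both mixtures lay below cco-1 alone, by 0.32 and 0.46 in the cbp-1 mixture and 2.97 and 2.37 in the atfs-1 mixture. For clec-10 the mixtures lay on opposite sides of cco-1 alone, at 96.8 ± 1.18 CPM in the cbp-1 mixture, 10.1 ± 0.714 CPM in the atfs-1 mixture and 50.4 ± 2.31 CPM in cco-1 alone (SD, n = 3 each), and the change between the mixtures was 3.26 ± 0.05 on the log2 scale.

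clec-4 and cyp-14A4, named after their values were seen, were low in both mixtures. clec-4 was at 11.6, 8.97 and 10.4 CPM in the cbp-1 mixture, 1.44, 2.0 and 2.03 CPM in the atfs-1 mixture and 92.1, 89.1 and 90.7 CPM in cco-1 alone. cyp-14A4 was at 4.75, 4.93 and 5.24 CPM, 0.552, 0.877 and 0.654 CPM, and 49.4, 50.2 and 48.8 CPM. Both genes thus kept more of their level with the cbp-1 clone than with the atfs-1 clone, by log2 changes of 2.48 ± 0.12 and 2.82 ± 0.15.

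The genes that cco-1 alone changed were then taken as a set, which uses no library of either mixture. cco-1 alone differed from the empty vector in 45.3% of all genes (23.1% higher and 22.2% lower). Of 426 genes (2.59%) raised there by a log2 change of at least 1, 150 were higher in the cbp-1 mixture than in the atfs-1 mixture (35.2%), 146 lower (34.3%) and 130 not called, with a median log2 change of 0.05. Of 435 genes (2.65%) lowered by as much, 141 were higher (32.4%) and 167 lower (38.4%), with a median of -0.21. The shares in both directions lay above those of all genes, with no net direction among the raised genes. The cco-1 and empty vector libraries differ in the share of reads outside genes (9.47% to 9.73% against 15.9% to 16.1%), and its part in the choice of these genes was not tested.

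Yolk genes, and most fatty acid desaturase and elongase genes, were lower in the cbp-1 mixture. All 6 vitellogenin genes, which code for yolk proteins made in the adult gut, were called lower (median log2 change of -0.81). vit-2 was at 5650, 5590 and 5570 CPM in the cbp-1 mixture, against 10600, 9670 and 10100 CPM in the atfs-1 mixture, and vit-5 at 832, 740 and 801 CPM, against 2430, 2060 and 2110 CPM. The desaturase fat-2 was at 204, 206 and 211 CPM, against 590, 588 and 579 CPM, and fat-3 fell by 1.02 ± 0.05. fat-5, a palmitoyl-CoA desaturase, went against the family at 136, 128 and 128 CPM, against 7.18, 6.28 and 7.03 CPM. Of the 16 desaturases and elongases 11 were lower (68.8%) and 4 higher. Other lipid genes changed in both directions. Of 57 acyl-CoA synthetase and beta-oxidation genes 22 were higher (38.6%) and 18 lower (31.6%), with summed levels of 5640 to 5690 CPM in the cbp-1 mixture, against 4970 to 5010 CPM in the atfs-1 mixture. Of 17 lipases and lipid-binding proteins 5 were higher (29.4%) and 8 lower (47.1%).

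Basic machinery was lower in small steps across whole lists. Of 80 cytosolic ribosomal protein genes 75 were lower in the cbp-1 mixture (93.8%) and 0 higher, with a median log2 change of -0.38 and none at 1. rpl-27, for example, was at 792, 830 and 811 CPM, against 1110, 1060 and 1080 CPM. Of 33 proteasome genes 29 were lower (87.9%; median -0.16), and of 65 nuclear genes of oxidative phosphorylation 51 (78.5%; median -0.22), 0 higher in either list. isp-1, the Rieske subunit of complex III, was at 320, 316 and 314 CPM, against 418, 406 and 424 CPM, and atp-2, an ATP synthase subunit, at 2220, 2160 and 2180 CPM, against 2880, 2790 and 2860 CPM. Of 28 tricarboxylic acid and glyoxylate cycle genes 15 were lower and 2 higher, with citrate synthase cts-1 at 918, 889 and 897 CPM, against 1410, 1330 and 1380 CPM. Against cco-1 alone, 71 of the 80 cytosolic ribosomal genes were lower in the cbp-1 mixture, where 25.3% of all genes were lower. In the atfs-1 mixture 0 of them were called, where 20.4% of all genes were called and 11.5% were lower.

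Mitochondrial ribosomal protein genes did not follow in the cco-1 arm. Of 70, 3 were higher (6 with upper-quartile scaling) and 7 lower, fewer in each direction than among all genes. Their median of -0.01 turned to 0.02 with upper-quartile scaling. In the mrps-5 arm 26 of the 70 were lower and 1 higher, with a median of -0.11, where 23.4% and 21.1% of all genes were. Against cco-1 alone 50 of the 70 were lower in the cbp-1 mixture (25.3% of all genes were) and 50 in the atfs-1 mixture (11.5% of all genes). The medians of -0.22 and -0.19 share the cco-1 libraries. The 14 mitochondrially encoded genes tested included 3 lower and 0 higher.

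Detoxification genes changed in both directions. Of 69 cytochrome P450 genes 34 were higher (49.3%) and 17 lower (24.6%). cyp-14A5 was at 135, 134 and 134 CPM in the cbp-1 mixture, against 14.1, 14.5 and 15 CPM in the atfs-1 mixture, and cyp-29A4 at 0.827, 1.1 and 0.796 CPM, against 13.9, 15.5 and 14.3 CPM. Of 63 glucuronosyltransferase genes 23 were higher and 30 lower, and of 47 glutathione transferase genes 20 were higher and 11 lower, with gsto-1 at 11.1, 11.4 and 10.4 CPM, against 58.4, 57.3 and 58.4 CPM. Nuclear hormone receptor genes were higher in 77 of 198 (38.9%) and lower in 31 (15.7%). Genes of the endoplasmic reticulum stress response were higher in 9 of 18 (50.0%) and lower in 4 (2 with upper-quartile scaling), none by a log2 change of 1.

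Markers of other cell types were compared in the same way. Summed levels are read against all genes tested, which summed to 905000 to 912000 CPM in the cbp-1 mixture. In the atfs-1 mixture that sum was 989000 to 1000000 CPM, so a slightly lower sum is not particular to a list. The gap between these totals is set by the TMM factors that scale each library and is not a measured fall. Muscle markers were lower in 15 of 28 (53.6%) and higher in 3, with summed levels of 12500 to 12800 CPM in the cbp-1 mixture, against 13500 to 13800 CPM in the atfs-1 mixture. Oocyte and early embryo markers were lower in 12 of 28 (42.9%) and higher in 1 (0 with RLE scaling), with sums of 15700 to 16100 CPM, against 17500 to 17800 CPM. Germline markers were lower in 12 of 37 (32.4%) and higher in 4, at 9360 to 9460 CPM, against 10100 to 10200 CPM. Hypodermis markers were lower in 11 of 22 (50.0%) and higher in 6 (27.3%), with sums of 2300 to 2350 CPM, against 2950 to 2990 CPM. Neuron markers were lower in 3 (1 with upper-quartile scaling) and higher in 10 of 30. Sperm genes were higher in 18 of 117 (15.4%) and lower in 3 (2.56%), fewer in each direction than among all genes. No marker list other than that of the intestine had a median beyond 0.2 in size on the log2 scale, and the part of these shifts in the other results was not tested.

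The same clones under mrps-5, in libraries that share none with those above, gave a comparison of the same size. There 7325 genes (44.6%) differed between the mixtures, 3476 (21.1%) higher and 3849 (23.4%) lower in the cbp-1 mixture (4577 and 3251 with upper-quartile scaling, which moved the higher share of calls to 58.5%, against 47.5%). Of the 3556 genes higher under cco-1, 2384 (67%) were called higher under mrps-5, which is 68.6% of those higher there, and 76 were called lower. Of the 3762 lower under cco-1, 2896 (77.0%; 75.2% of those lower there) were called lower and 64 higher. The cbp-1 clone alone against the empty vector, again with no shared library, had 2704 (76.0%) of the higher and 2904 (77.2%) of the lower genes called the same way, and 159 and 243 the opposite way, out of 9646 genes called there (58.7%; 30.2% higher and 28.5% lower).

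Among the called genes with the same direction in the mrps-5 arm were hsp-16.41, eol-1 and tbh-1. hsp-16.41 was at 1.45, 0.679 and 1.25 CPM with mrps-5 and cbp-1, against 89.2, 101 and 102 CPM with mrps-5 and atfs-1 and 1.36, 1.76 and 1.39 CPM with mrps-5 alone. eol-1 was at 112, 104 and 116 CPM, against 1.16, 1.12 and 0.937 CPM, and tbh-1 at 5.34, 4.86 and 4.94 CPM, against 128, 121 and 131 CPM. In each case, the mixture that stood apart was the one that stood apart under cco-1.

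**Figure D4:**
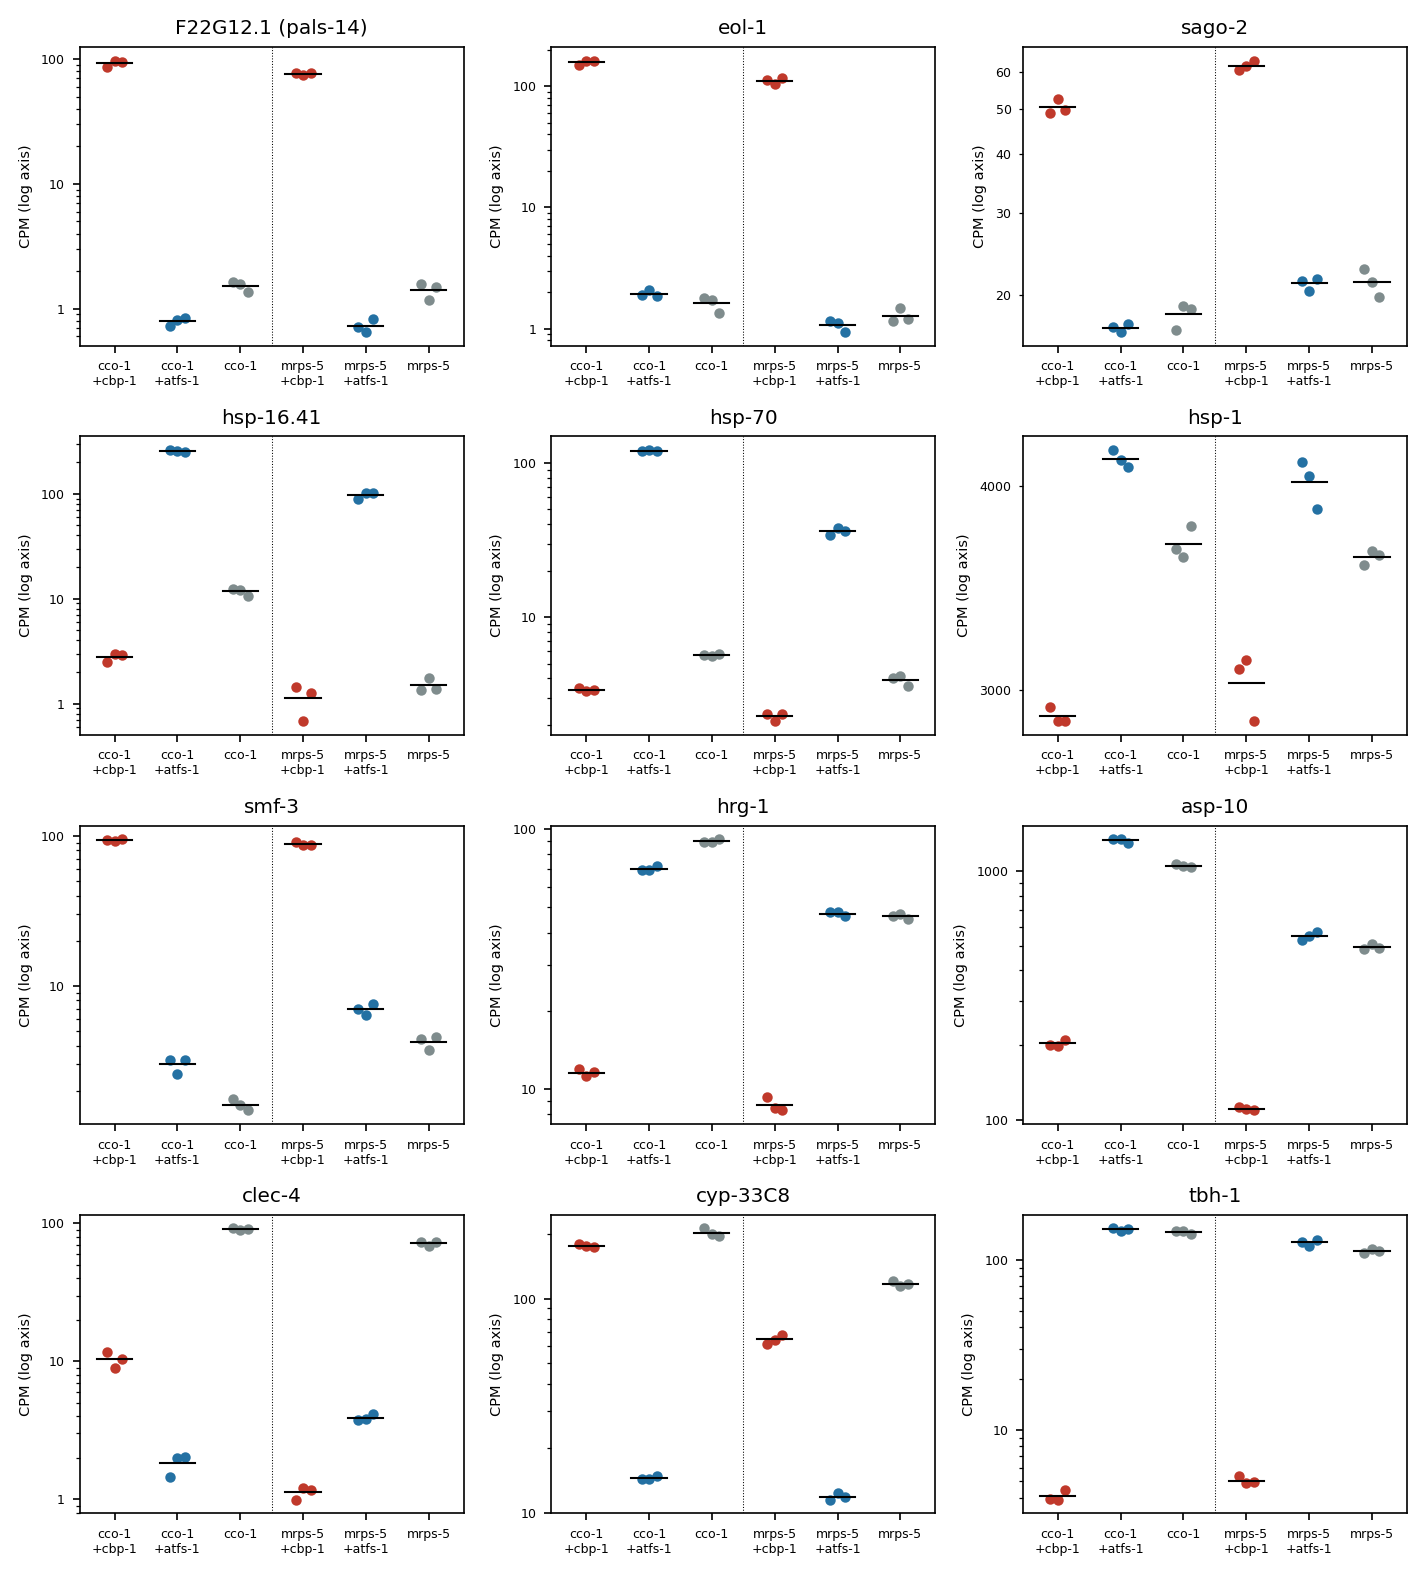
CPM on a log axis of 12 genes in each library (points, 3 per group) with the group mean (line), for the cco-1 arm on the left of the dotted line and the mrps-5 arm on the right of it. Heat shock genes are high in the atfs-1 mixture of both arms, at 252 to 262 CPM for hsp-16.41 under cco-1, and tbh-1 is low in the cbp-1 mixture of both, at 3.89 to 4.41 CPM under cco-1.

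A test of the difference between the arms called 1412 genes (8.59%), 809 (4.92%) with a more positive and 603 (3.67%) with a more negative change under cco-1, and 325 (1.98%) of them at a log2 difference of at least 1. B0348.2, whose role is not given here, had the largest difference among called genes averaging 5 CPM or more over the 12 mixture libraries of both arms, a limit that clec-4 did not reach. It was at 46.8, 49.7 and 48.9 CPM with cco-1 and cbp-1, against 24, 23.1 and 24.8 CPM with cco-1 and atfs-1, while under mrps-5 it was at 53.5, 54 and 48.7 CPM with cbp-1, against 2.25, 3.0 and 1.99 CPM with atfs-1. The changes of 1.01 and 4.43 differed by -3.41 (adjusted p = 5.16e-24, edgeR). F33H12.7 was at 10.2, 10.8 and 9.98 CPM with cco-1 and cbp-1, against 70.9, 76.8 and 71.1 CPM with cco-1 and atfs-1, and at 8.5, 8.6 and 9.96 CPM against 8.41, 8.67 and 8.77 CPM under mrps-5. For clec-4 the sign differed, with 2.48 under cco-1 and -1.8 under mrps-5, where it was at 0.992, 1.21 and 1.16 CPM with cbp-1, against 3.76, 3.79 and 4.12 CPM with atfs-1.

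**Figure D5:**
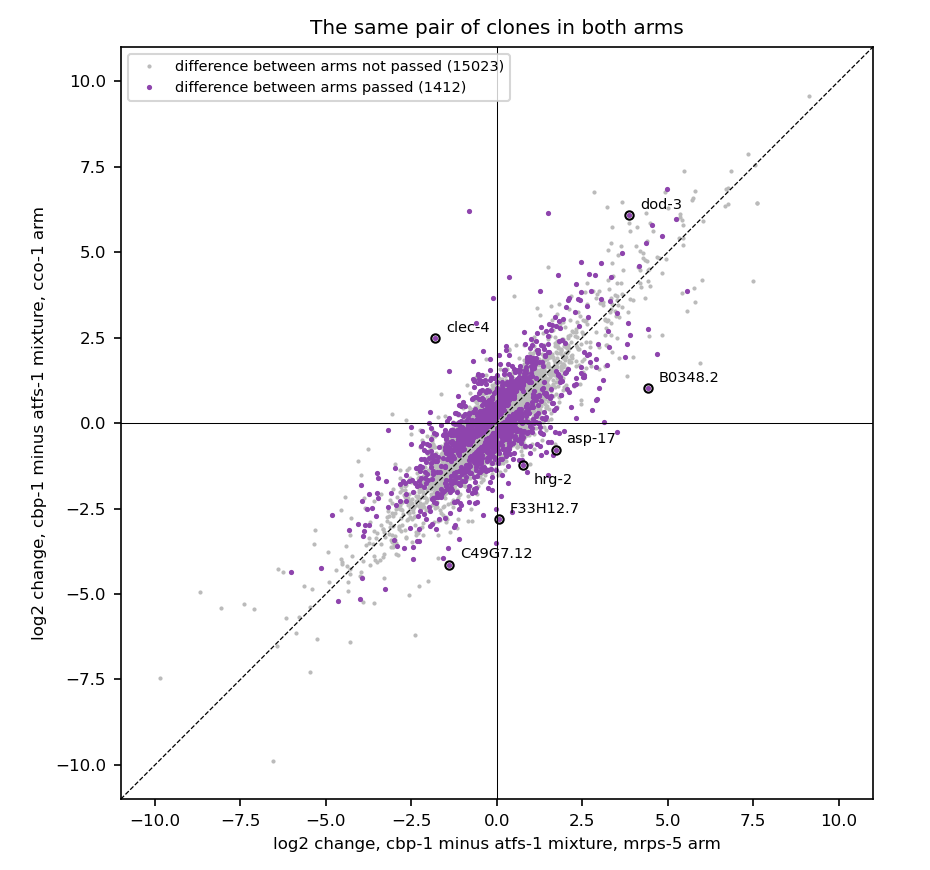
Log2 change, cbp-1 minus atfs-1 mixture, for each of 16435 genes under cco-1 (vertical axis) and under mrps-5 (horizontal axis). Purple points are the 1412 genes for which the difference between arms passed the test, and circles mark the 6 largest by the naming rule and clec-4. Most genes lie along the dashed line of equal change.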

How the data were processed

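Poly(A) RNA of whole worms was sequenced on the BGISEQ-500 platform, per the labels' protocols. The deposited table holds raw read counts per gene for 27 libraries (9 groups of 3). STAR 2.6.0a, HTSeq 0.10.0 and the WBcel235 build are named in the submitters' processing notes; their strand setting and filters are not stated there. The authors' counts were used as deposited. The table's lines that name no gene held 8.71% to 9.43% of counts in the 6 libraries compared and stayed out of library sizes and tests. Of 46738 genes, 43719 matched the name table.

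CPM, TMM factors and edgeR 4.0.16 quasi-likelihood tests (robust; limma 3.58.1, R 4.3.3) were computed over all 27 libraries with 1 coefficient per group. Genes passed a minimum count of 10 by group, and Benjamini-Hochberg adjustment covered all 16435 genes tested, with calls below 0.05. Standard errors were derived from the log2 change and its F statistic. The depth of 23605069 to 30584399 counts per library made counting error small for genes above a few CPM; intervals cover counting error only.

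Named genes were the targeted genes and their relatives, the 12 rises and 12 falls of largest size among called genes whose groups did not overlap and that averaged 5 CPM or more over the 6 libraries, the chaperone list, up to 3 called members of each of 46 lists by smallest adjusted p, and 6 called genes by size of the difference between arms (averaging 5 CPM or more over the 12 mixture libraries). Members and lists were chosen with earlier results of these data known. No set test was run. Alternatives were DESeq2 1.42.0, RLE and upper-quartile scaling, other filters and thresholds, only the groups compared, the replicate number as a block, each library of the compared groups left out in turn and, added after seeing the data, leaving library 1 of the atfs-1 clone alone out of the fit. On simulated data over 16296 genes, the comparison under cco-1 found 73% of 1.5-fold and 90% of 2-fold changes, with 5 false calls. The simulation changed 100 genes at each fold and gave both mixtures equal means in all other genes. In the data 7318 of 16435 genes were called, so neither the recovery nor the 5 false calls carry over to them.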

Additional observations from a re-analysis of the deposited data

Results flagged for a closer look

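The difference between the cbp-1 and atfs-1 mixtures was not the same in the cco-1 and the mrps-5 arm for 54 of 110 genes named or examined, by a test of the difference itself (edgeR interaction contrast, adjusted over all 16435 genes). These 110 leave out some genes named above, and the lists below hold only the 54. Among those left out, ges-1, mtl-2, asp-1, cul-6, elt-2 and hif-1 also passed. Their log2 changes under cco-1 and mrps-5 were 1.245 and -0.205 (ges-1), -1.327 and -2.342 (mtl-2), and -1.742 and -2.398 (asp-1). For cul-6 they were 0.465 and 1.054, for elt-2 -0.261 and 0.024, and for hif-1 0.069 and -0.072. Of the 54, 6 were named for the size of this difference (B0348.2, F33H12.7, C49G7.12, asp-17, hrg-2 and dod-3) and 5 after their values were seen (clec-4, cyp-14A4, hrg-3, C29F9.3 and C29F9.4), so the count is a description and is not to be read against the share among all genes. Values in brackets are the log2 change under cco-1 minus that under mrps-5.

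The difference was at least 1 for clec-4 (4.28), dod-3 (2.21), comt-4 (1.90), lys-7 (1.76), cyp-14A4 (1.52), asp-8 (1.51), nhr-193 (1.46), mtl-1 (1.46), cdr-2 (1.35), smf-3 (1.31), cyp-33C8 (1.16) and ugt-62 (1.12). It was positive and smaller for clec-10 (0.98), fat-5 (0.91), C30G12.2 (0.91), bas-1 (0.79), cpr-1 (0.78), hda-5 (0.76), lys-2 (0.75), C17H1.7 (0.74), vit-4 (0.64), clec-222 (0.64), zip-3 (0.54), fat-2 (0.53), gst-13 (0.52), vha-6 (0.49), trap-1 (0.42), mrps-5 (0.35), sago-1 (0.28), clec-5 (0.26), vit-2 (0.25), fat-3 (0.24), aco-1 (0.23) and cts-1 (0.18).

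The difference was -1 or below for B0348.2 (-3.41), F33H12.7 (-2.88), C49G7.12 (-2.76), asp-17 (-2.50), hrg-2 (-2.0), hrg-3 (-1.52), gsto-1 (-1.35), sir-2.3 (-1.27), hsp-70 (-1.17), C29F9.4 (-1.15) and F40F12.7 (-1.06). It was negative and smaller for C29F9.3 (-0.98), ctsa-1 (-0.61), tbh-1 (-0.56), gst-6 (-0.55), cbp-2 (-0.53), asp-10 (-0.41), ugt-63 (-0.34), cyp-14A5 (-0.30) and skpo-1 (-0.29).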

How the results depend on the processing

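The comparison of the mixtures called 7318 genes, and 5529 (at least 5 CPM in 3 libraries) to 8283 (only the groups compared) under the alternatives, with 6812 by DESeq2 and 7427 with upper-quartile scaling. Requiring at least 5 CPM in 3 libraries, which tests fewer genes, left 961 genes at a log2 change of at least 1 in size under cco-1, 898 under mrps-5 and 216 for the difference between arms. Under cco-1, a limit of 0.5 gave 3695 genes and a limit of 2 gave 593. Leaving library 1 of the atfs-1 clone alone out of the fit, chosen after seeing the data, gave 8093 genes under cco-1, 8103 under mrps-5 and 1947 for the difference between arms. The other 189 of 194 alternative counts stayed within 1.5 times the main count. Of 1372 alternative values for 98 named genes none reversed or lost its call, and 9 gained one, in spg-7, C34B2.6 and ppgn-1. Leaving out 1 library of the groups compared at a time gave 6537 to 6690 genes under cco-1 (1856 to 1905 at 1 or more, 3173 to 3271 higher, 3364 to 3446 lower), 6443 to 6777 under mrps-5 and 1250 to 1344 for the difference between arms. The list medians of the RNA interference pathway, the methionine cycle and the mitochondrial ribosome changed sign with scaling, and all lay near 0. Genes below a few CPM are limited by depth.

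Replicate numbers did not pair the samples: the deviations of same-numbered libraries correlated at -9.08e-05, 0.0024 and -0.0265. With the replicate number as a block, 7281 genes were called under cco-1 (3540 higher and 3741 lower, 1877 at 1 or more), 7278 under mrps-5 and 1377 for the difference between arms.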

Other observations

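Histone genes, of which poly(A) libraries catch only a part, were higher in 15 of 43 tested (34.9%) and lower in 5 (11.6%) in the cbp-1 mixture relative to the atfs-1 mixture, with a median log2 change of 0.33. Autophagy and lysosome genes were higher in 12 of 26 (46.2%) and lower in 4 (15.4%). Among deacetylase genes, hda-5 was at 11.1, 11.4 and 11 CPM in the cbp-1 mixture, against 4.21, 3.02 and 3.69 CPM in the atfs-1 mixture. sir-2.3, a sirtuin gene, was at 1.56, 1.43 and 1.79 CPM, against 9.3, 10.2 and 10.1 CPM, and the groups of both genes did not overlap. Neuropeptide and insulin genes were higher in 24 of 121 (19.8%) and lower in 17 (14%), with nlp-24 at 8.03, 8.08 and 7.56 CPM, against 48.4, 47.4 and 52.5 CPM, and nlp-25 at 10.2, 9.33 and 9.75 CPM, against 2.08, 2.11 and 2.09 CPM.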
